A study of Mus musculus with 22 samples.

Results

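T cells that carried NK1.1 but not CD8a were set against CD8a+ T cells that carried neither PD1 nor NK1.1, both sorted from mouse mammary tumours. The comparison uses the 2 TCRb+CD8a-NK1.1+ libraries and the 2 TCRb+CD8a+PD1-NK1.1- libraries, 4 of the 22 RNA-seq libraries of the series. Members were chosen by these sort names, as the labels give them, and not by any measured value. All libraries came from tumours of female PyMT mice on the C57BL/6 strain, aged 20 to 24 weeks. PyMT is the transgene of a viral oncogene that gives mammary tumours, and its promoter is not named in the labels. Tumours were pooled, and nothing says that replicate libraries came from separate animals. All p-values here rest on the spread between libraries, which may be technical.

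The sort could be checked in the RNA. Klrb1c encodes NK1.1, a receptor of the NKR-P1 family on natural killer (NK) cells and some T cells. It stood at 975 and 888 CPM (the count as a share of its library's total, times 1000000, scaled by TMM factors) in TCRb+CD8a-NK1.1+ libraries, against 12.7 and 22.1 CPM in TCRb+CD8a+PD1-NK1.1- libraries. Cd8a, which encodes the CD8 alpha chain, stood at 89 and 43.6 CPM in TCRb+CD8a-NK1.1+ cells, against 1525 and 1480.3 CPM in TCRb+CD8a+PD1-NK1.1- cells. Cd8b1, the gene of the CD8 beta chain, stood at 10.8 and 0 CPM in TCRb+CD8a-NK1.1+ cells, against 2345 and 2081 CPM in TCRb+CD8a+PD1-NK1.1- cells. All 3 genes followed the labels in each of the 4 libraries. Pdcd1, which encodes PD1, stood at 11.1 and 23.2 CPM in TCRb+CD8a-NK1.1+ cells, against 92.3 and 105 CPM in the cells sorted as PD1-. It was at 1887 and 1517 CPM in the TCRb+CD8a+PD1+ libraries of the series. Genes of the T cell receptor complex were present in both populations, with Cd3e at 926 and 1274 CPM in TCRb+CD8a-NK1.1+ cells and 898 and 1059.7 CPM in TCRb+CD8a+PD1-NK1.1- cells.

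Markers of invariant natural killer T (NKT) cells, after which the TCRb+CD8a-NK1.1+ cells had the working name NKT-like, were low or overlapped between the populations. Zbtb16, the gene of the transcription factor PLZF that defines NKT cells, had 32 and 18 counts in TCRb+CD8a-NK1.1+ libraries and 0 and 0 in TCRb+CD8a+PD1-NK1.1- libraries, or 2.14 and 1.25 CPM in TCRb+CD8a-NK1.1+ cells (at least 14.8-fold higher with a floor of 3 counts over the TCRb+CD8a+PD1-NK1.1- group, adjusted p = 0.2, not called). Traj18, the joining segment of the invariant receptor, had 36 and 2 counts in TCRb+CD8a-NK1.1+ libraries and 21 and 13 counts in TCRb+CD8a+PD1-NK1.1- libraries. Cd4 had 2 and 2 counts in TCRb+CD8a-NK1.1+ libraries and 0 and 0 in TCRb+CD8a+PD1-NK1.1- libraries. Slamf1, a receptor gene of the SLAM family, was at 0.468 and 2.5 CPM in TCRb+CD8a-NK1.1+ cells, against 31.4 and 33.6 CPM in TCRb+CD8a+PD1-NK1.1- cells. Slamf6, of the same family, which NKT cell development uses, was at 6.15 and 2.77 CPM in TCRb+CD8a-NK1.1+ cells, against 84.4 and 59.6 CPM in TCRb+CD8a+PD1-NK1.1- cells, and both are tested below. Slamf1 and Slamf6 were the 2 members called lower in a list of 28 innate-like and NKT cell genes. In that list 5 members were called higher and the median log2 fold change was 0.60, as given below. The cells are called by their sort name here. The TCRb+CD8a+PD1-NK1.1- cells, named resting in the working name, held Gzmb at 1615 and 2522 CPM and Cd69, an early activation marker, at 634 and 978 CPM.

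NK1.1 and its relatives in the Klr gene clusters are lectin-like receptors that NK cells and innate-like T cells use to sense ligands on other cells. Many signal through the adaptors FcεRIγ and DAP12 and the kinase Syk, whereas the T cell receptor signals through CD3, Zap70 and Lat. Naive and recirculating T cells express Ccr7, S1pr1, Il7r, Tcf7 and Lef1, which serve homing to lymph nodes, exit from tissue and long-term survival. Killer lymphocytes store granzymes, proteases that enter target cells with the help of perforin.

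Promoters of 4 genes described below are shown because these genes differed strongly between the populations, Ncr1 and Klra1 being higher and Gzmk and Il7r lower in TCRb+CD8a-NK1.1+ cells. Each sequence is the 250 bases before the annotated start on the gene's strand, from RefSeq on GRCm38.p6. The windows lie at chr7:4337465-4337714 (plus strand, Ncr1), chr6:130386875-130387124 (minus strand, Klra1), chr13:113180966-113181215 (minus strand, Gzmk) and chr15:9529877-9530126 (minus strand, Il7r). Capitals mark matches to 4 motifs searched on both strands, TGTGGT (RUNX), GGTGTGA (T-box), AGGAAGT (ETS) and CTTTGAA (TCF/LEF).
Ncr1: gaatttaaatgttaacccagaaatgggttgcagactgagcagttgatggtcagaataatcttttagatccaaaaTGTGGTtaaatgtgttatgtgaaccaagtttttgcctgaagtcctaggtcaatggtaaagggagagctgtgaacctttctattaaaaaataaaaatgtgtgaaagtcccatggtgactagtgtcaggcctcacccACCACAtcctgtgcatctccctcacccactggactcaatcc
Klra1: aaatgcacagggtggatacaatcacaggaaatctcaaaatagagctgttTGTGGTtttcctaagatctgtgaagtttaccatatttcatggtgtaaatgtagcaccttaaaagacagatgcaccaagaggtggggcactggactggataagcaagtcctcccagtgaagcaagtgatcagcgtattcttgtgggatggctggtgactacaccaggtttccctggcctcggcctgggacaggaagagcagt
Gzmk: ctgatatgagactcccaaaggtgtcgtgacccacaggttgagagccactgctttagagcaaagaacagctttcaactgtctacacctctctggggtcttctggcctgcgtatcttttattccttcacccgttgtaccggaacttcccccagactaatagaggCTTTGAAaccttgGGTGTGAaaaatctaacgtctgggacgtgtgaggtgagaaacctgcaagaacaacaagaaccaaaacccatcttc
Il7r: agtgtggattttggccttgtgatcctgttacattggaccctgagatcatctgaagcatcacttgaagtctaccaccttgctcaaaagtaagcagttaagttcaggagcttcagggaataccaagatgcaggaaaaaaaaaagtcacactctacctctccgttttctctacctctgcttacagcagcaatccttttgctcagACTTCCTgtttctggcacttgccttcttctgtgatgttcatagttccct
The Ncr1 window held the RUNX letters from -176 to -171 on the gene's strand and from -41 to -36 on the other strand, counted from the start. Klra1 held them once, from -201 to -196. Gzmk held TCF/LEF letters from -88 to -82 and T-box letters from -75 to -69, and Il7r held ETS letters on the other strand from -49 to -43. The windows of Fcer1g and Cd8a held none of the 4 motifs. TGTGGT was in 16 of 80 windows (20%) of genes called higher that did not follow the epithelial list defined below, in 7 of 45 windows (15.6%) of genes called lower, and in 14.2% of all 27025 windows. AGGAAGT was in 13.8% of the windows of those higher genes, in 15.6% of those of lower genes and in 7.8% of all. GGTGTGA was in 5%, 4.44% and 3.31%, and CTTTGAA in 10%, 4.44% and 4.64%, in the same order. A match describes letters only.

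Between the populations, 223 of 15727 tested genes (1.42%) differed at an adjusted p below 0.05 in edgeR's quasi-likelihood F test, adjusted by the method of Benjamini and Hochberg. Of these, 166 (1.06%) were higher and 57 (0.362%) lower in TCRb+CD8a-NK1.1+ cells. The fit took its spread from the 10 libraries of 5 populations named by TCR, CD8a, NK1.1 and PD1. Both TCRb+CD8a-NK1.1+ libraries lay above or below both TCRb+CD8a+PD1-NK1.1- libraries in 36.6% of all tested genes, so lack of overlap alone marks little. The median log2 fold change of all tested genes was 0.06. Differences below are log2 fold changes ± SE of TCRb+CD8a-NK1.1+ over TCRb+CD8a+PD1-NK1.1- cells, n = 2 libraries each, with adjusted p from the same test. With only these 4 libraries in the fit 32 genes were called, and DESeq2 called 1024. Without TCRb+CD8a+PD1-NK1.1- replicate 1 or 2 the count fell to 40 or 57, and without TCRb+CD8a-NK1.1+ replicate 1 or 2 it was 342 or 884.

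**Figure D1:**
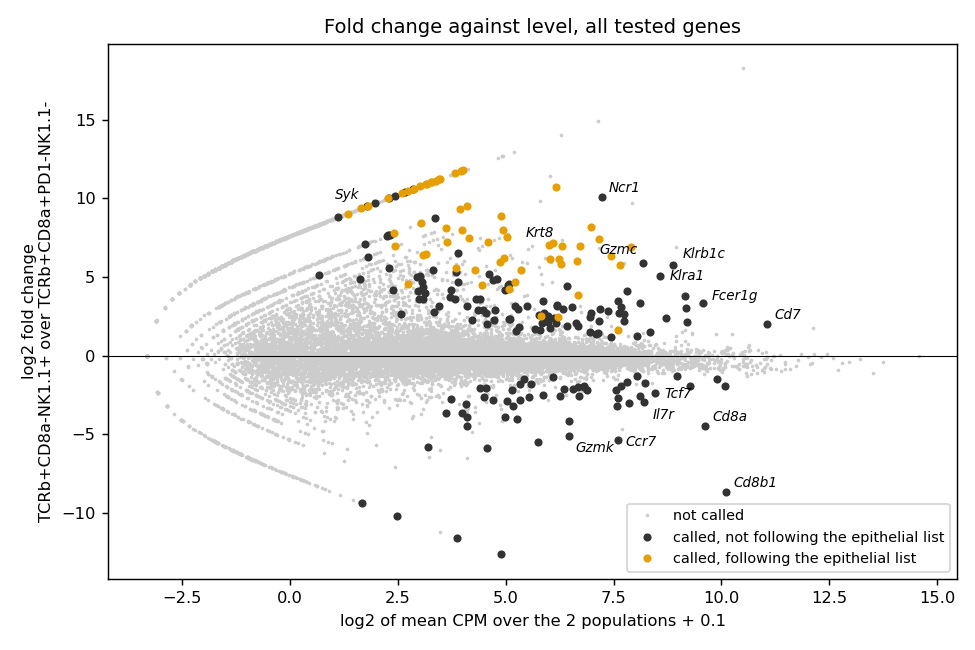
Log2 fold change (TCRb+CD8a-NK1.1+ over TCRb+CD8a+PD1-NK1.1- cells) against the log2 of mean CPM + 0.1 for 15727 tested genes, with called genes as larger points. Orange points follow the epithelial list, and 60 of the 166 genes called higher are orange while none of the 57 called lower is. Genes at 0 counts in 1 population lie on the outer curves, where the fitted change depends on the prior count.

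Total counts were alike, at 13817168 and 13736594 in TCRb+CD8a-NK1.1+ libraries and 12893849 and 13648366 in TCRb+CD8a+PD1-NK1.1- libraries. In these 4 libraries 3 counts equal 0.217 to 0.233 CPM. Genes with at least 1 count numbered 18570 and 14690 in TCRb+CD8a-NK1.1+ libraries and 16639 and 16043 in TCRb+CD8a+PD1-NK1.1- libraries. TCRb+CD8a-NK1.1+ replicate 2 thus had the fewest such genes of the 10 libraries of the fit. The TCRb+CD8a-NK1.1+ replicates were less alike than those of the other populations of the fit. Their log2 CPM correlated across genes at r = 0.847, against 0.945 for the TCRb+CD8a+PD1-NK1.1- replicates and 0.915 to 0.958 for the other 3 populations. Genes of mammary epithelium moved with this. The summed level of the epithelial list was 6017 and 1117 CPM in TCRb+CD8a-NK1.1+ libraries, against 261 and 391 CPM in TCRb+CD8a+PD1-NK1.1- libraries. The list summed to 8137 and 4876 CPM in TCR-NK1.1+, 600 and 702 CPM in TCRb+CD8a+NK1.1+ and 214 and 356.5 CPM in TCRb+CD8a+PD1+ libraries. Of its 18 tested members 6 rose (1.06% of all genes did), among them the keratin genes Krt8 (6.95 ± 0.78, adjusted p = 0.00405) and Krt18 (6.31 ± 0.86, adjusted p = 0.0108), and the median was 6.00. In 12 members both TCRb+CD8a-NK1.1+ libraries lay above both TCRb+CD8a+PD1-NK1.1- libraries, as in 18.6% of all genes. The count of 6 was 1 or 2 without TCRb+CD8a+PD1-NK1.1- replicate 1 or 2, 16 without TCRb+CD8a-NK1.1+ replicate 2 and 0 with only the 4 libraries. Krt18 was not called without either TCRb+CD8a+PD1-NK1.1- replicate (adjusted p = 0.108 and 0.0577), while Krt8 was called without any 1 library, with log2 changes of 5.29 to 7.69. Members at 0 numbered 0 and 4 in the TCRb+CD8a-NK1.1+ libraries and 6 and 5 in the TCRb+CD8a+PD1-NK1.1- libraries, and the basal keratin gene Krt5 was at 0.735 and 0 CPM in TCRb+CD8a-NK1.1+ cells and 0 and 0.223 CPM in TCRb+CD8a+PD1-NK1.1- cells. The myeloid list summed to 1496 and 597 CPM in TCRb+CD8a-NK1.1+ libraries, against 393 and 396 CPM in TCRb+CD8a+PD1-NK1.1- libraries, and 4 of 22 members rose, Cd74, Itgax, C1qb and Ms4a7 (list median 2.62). That count was 0 or 1 without TCRb+CD8a+PD1-NK1.1- replicate 1 or 2, 12 without TCRb+CD8a-NK1.1+ replicate 2 and 0 with only the 4 libraries, and all 4 calls were lost without TCRb+CD8a+PD1-NK1.1- replicate 1 (adjusted p = 0.115 to 0.26). Those of C1qb, Ms4a7 and Cd74 were also lost without TCRb+CD8a+PD1-NK1.1- replicate 2 (0.122 to 0.215), and that of Cd74 without TCRb+CD8a-NK1.1+ replicate 1 (0.087). C1qb, a complement gene of macrophages, was at 26.1 and 25.9 CPM in TCRb+CD8a-NK1.1+ cells and 1.49 and 2.75 CPM in TCRb+CD8a+PD1-NK1.1- cells, while Adgre1, which encodes the macrophage marker F4/80, was at 6.88 and 0 CPM in TCRb+CD8a-NK1.1+ cells and 0.391 and 0.149 CPM in TCRb+CD8a+PD1-NK1.1- cells. Of the list 0 and 6 members were at 0 in the TCRb+CD8a-NK1.1+ libraries and 2 and 3 in the TCRb+CD8a+PD1-NK1.1- libraries. The myeloid list summed to 2459 and 2284 CPM in TCR-NK1.1+, 284.2 and 350.5 CPM in TCRb+CD8a+NK1.1+ and 508.1 and 813 CPM in TCRb+CD8a+PD1+ libraries. Kit, a receptor gene of mast cells and progenitors, was at 60.5 and 17.7 CPM in TCRb+CD8a-NK1.1+ cells and 3.05 and 3.35 CPM in TCRb+CD8a+PD1-NK1.1- cells, and the mast cell proteases Cpa3 and Cma1 were at 0 in both TCRb+CD8a+PD1-NK1.1- libraries and at most at 2.29 CPM in TCRb+CD8a-NK1.1+ libraries. Of 10 B cell genes and 7 genes of red cells and platelets none was called by edgeR, 4 and 1 had an unadjusted p below 0.05, and DESeq2 called 3 and 0. Of 10 stromal and endothelial genes 1 fell (0.362% of all tested genes did), Pecam1, which T cells also express. The log2 change of Pecam1 was −2.85, and from −3.34 to −2.07 over the fits that left out 1 library.

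Of the 166 genes called higher, 60 (36.1%) followed the epithelial list, meaning that their log2 CPM correlated above 0.8 with the list's mean over 22 libraries. In 52 of these 60 the TCRb+CD8a-NK1.1+ replicate 1 was more than 2 times replicate 2, with a median ratio of 4.44. In the other 106 the median ratio was 1.01, and 12 passed 2. The 22 libraries include both TCRb+CD8a-NK1.1+ replicates, between which the list itself differed. The choice of followers thus favours a high ratio in them, and no conclusion is drawn from the ratios. Of the 15 largest rises among genes with a mean of at least 20 CPM, 13 were of the first kind, the exceptions being Ncr1 and Capn5. Of the 15, Emp2, Osmr, Serinc2, Etv1, Ffar4 and Nrep were at 0 counts in both TCRb+CD8a+PD1-NK1.1- libraries, where the fitted change depends on the prior count. In TCRb+CD8a-NK1.1+ libraries Emp2 was at 51.4 and 13.1 CPM, Osmr at 27.4 and 34.9 CPM and Serinc2 at 45.8 and 10.6 CPM. Emp2 and Serinc2 were several times higher in replicate 1 than in replicate 2. Emp2 was called without any 1 library, while Osmr (adjusted p = 0.163 and 0.126) and Serinc2 (0.175 and 0.135) were not called without TCRb+CD8a+PD1-NK1.1- replicate 1 or 2. Epcam, an epithelial adhesion gene that some T cells also express, did not follow the list. It was at 64.2 and 54.9 CPM in TCRb+CD8a-NK1.1+ cells and 1.49 and 5.2 CPM in TCRb+CD8a+PD1-NK1.1- cells. How far epithelial RNA takes part in the 60 rises was not tested. With the followers removed before the fit, 121 genes were called higher and 62 lower. In these bulk samples more cells of a type and more RNA per cell cannot be told apart.

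**Figure D2:**
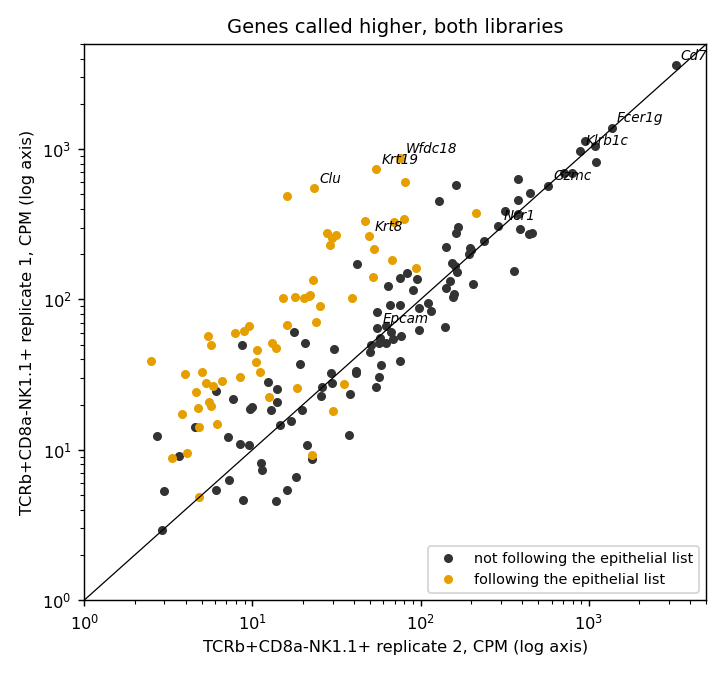
Level of each of the 166 genes called higher in TCRb+CD8a-NK1.1+ replicate 1 (vertical) and replicate 2 (horizontal), in CPM on log axes with the line of equality. Orange genes, which follow the epithelial list, lie mostly above the line (median ratio 4.44), and black genes, which do not, lie around it (median ratio 1.01). Both replicates are among the libraries that decided which genes follow the list, so colour and ratio are not independent.

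Of 31 tested NK receptor genes 13 rose (41.9%, against 1.06% of all genes) and none fell, and the list's median change was 2.46. Ncr1 encodes NKp46, an activating receptor of NK cells. It was at 309 and 289 CPM in TCRb+CD8a-NK1.1+ libraries, against 0.548 and 0 CPM in TCRb+CD8a+PD1-NK1.1- libraries (10.07 ± 1.03, adjusted p = 0.00405). Ncr1 was high in both TCRb+CD8a-NK1.1+ libraries and at or near 0 in both TCRb+CD8a+PD1-NK1.1- libraries. Klra1, an Ly49 receptor gene whose product binds MHC class I, was at 697 and 794 CPM in TCRb+CD8a-NK1.1+ cells, against 19.2 and 26.1 CPM in TCRb+CD8a+PD1-NK1.1- cells (5.04 ± 0.39, adjusted p = 0.00124). Klrb1c is among the 13 and in the list's median, although the sort itself selected on its product. Klrb1c differed by 5.74 ± 0.53, adjusted p = 0.00326. Of the CD8 genes, Cd8a, which the sort used, differed by −4.50 ± 0.45, adjusted p = 0.0034 and Cd8b1 by −8.67 ± 1.40, adjusted p = 0.0195. Cd8b1 was not called without TCRb+CD8a+PD1-NK1.1- replicate 1 or 2 (adjusted p = 0.0699 and 0.0512). Klrb1b, whose product inhibits on binding Clr-b, was at 24.7 and 6.1 CPM in TCRb+CD8a-NK1.1+ cells and 0.861 and 0.0744 CPM in TCRb+CD8a+PD1-NK1.1- cells (5.03 ± 0.87, adjusted p = 0.0266). Cd244a, the gene of the SLAM family receptor 2B4, was at 689 and 713 CPM in TCRb+CD8a-NK1.1+ cells, against 103 and 169 CPM in TCRb+CD8a+PD1-NK1.1- cells (2.37 ± 0.32, adjusted p = 0.0107).

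The other 8 risen members were Klra6, Klra7, Klrb1a, Klrb1f, Klrc2, Klre1, Klri2 and Fcgr3, which encodes the Fc receptor CD16. Of all 31 members 28, Klrb1c included, had both TCRb+CD8a-NK1.1+ libraries above both TCRb+CD8a+PD1-NK1.1- libraries, a position that 18.6% of all tested genes held. Klrk1, the gene of NKG2D, which CD8 T cells also express, was at 791 and 929.6 CPM in TCRb+CD8a-NK1.1+ cells and 211 and 356 CPM in TCRb+CD8a+PD1-NK1.1- cells and lay at the threshold (1.60 ± 0.33, adjusted p = 0.0500175). Klrg1, a marker of terminally differentiated cells, was the 1 member below in both libraries, at 8.02 and 7.49 CPM in TCRb+CD8a-NK1.1+ cells and 15 and 18.1 CPM in TCRb+CD8a+PD1-NK1.1- cells (−1.10 ± 0.44, adjusted p = 0.295). Some members of the Klra, Klrb and Klrc families are near-identical, so single values in these families are uncertain. Without TCRb+CD8a+PD1-NK1.1- replicate 1 or 2 the count of 13 fell to 6 or 9, and with only the 4 libraries to 9. Klrb1c, Ncr1 and Klra1 were called without any 1 library. Cd244a was not called without TCRb+CD8a+PD1-NK1.1- replicate 1 (adjusted p = 0.0966), nor was Klrb1b without TCRb+CD8a+PD1-NK1.1- replicate 1 or 2 (0.0531 and 0.116).

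**Figure D3:**
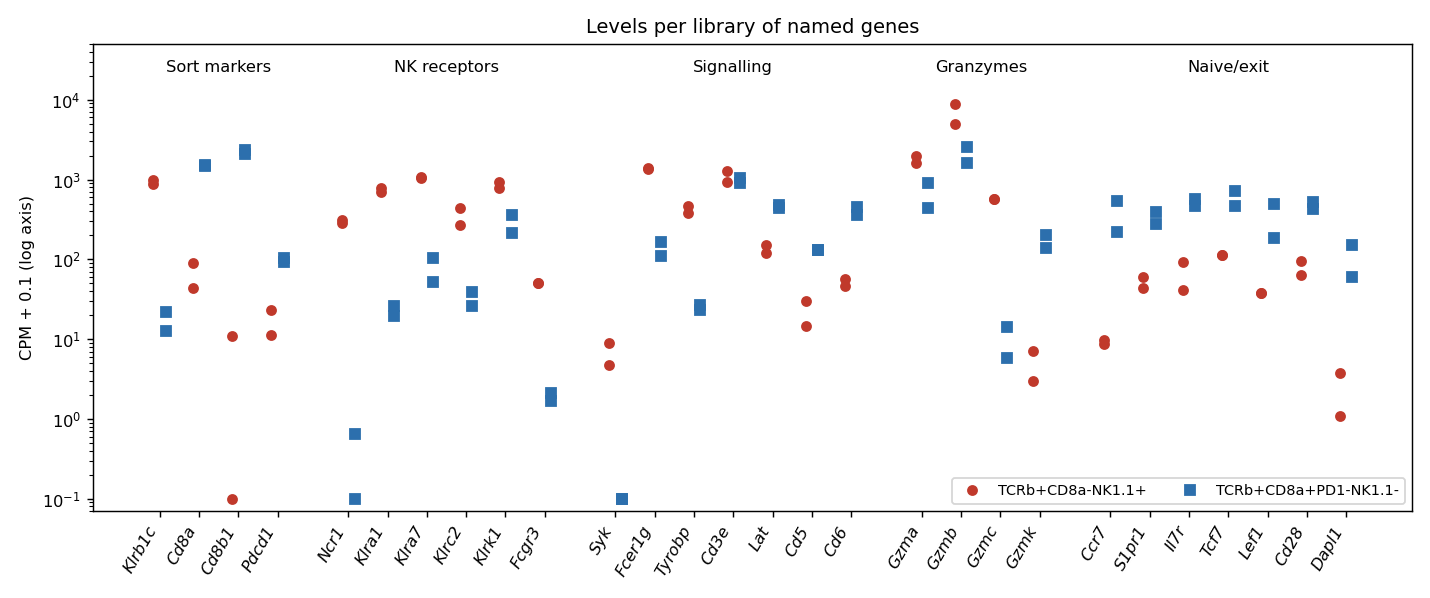
CPM + 0.1 on a log axis for named genes in each of the 2 TCRb+CD8a-NK1.1+ libraries (red circles) and the 2 TCRb+CD8a+PD1-NK1.1- libraries (blue squares). NK receptor, Fcer1g, Tyrobp and Gzmc points are red above blue, Cd5, Cd6, Lat, Gzmk and the naive and exit genes are blue above red, and Cd3e points are mixed.

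Adaptors and kinases that NK receptors use were among the genes that rose. Fcer1g, which encodes the adaptor FcεRIγ, was at 1388 and 1365 CPM in TCRb+CD8a-NK1.1+ libraries, against 110.4 and 163 CPM in TCRb+CD8a+PD1-NK1.1- libraries (3.33 ± 0.48, adjusted p = 0.0132). Tyrobp, which encodes DAP12, the adaptor of several activating NK receptors, was at 462 and 381 CPM in TCRb+CD8a-NK1.1+ cells, against 22.8 and 27 CPM in TCRb+CD8a+PD1-NK1.1- cells (4.08 ± 0.40, adjusted p = 0.00326). Syk, the kinase that these adaptors recruit, was at 4.61 and 8.8 CPM in TCRb+CD8a-NK1.1+ cells and at 0 counts in both TCRb+CD8a+PD1-NK1.1- libraries. Taking 3 counts over the TCRb+CD8a+PD1-NK1.1- group as the floor, Syk was at least 58.7-fold higher in TCRb+CD8a-NK1.1+ cells (adjusted p = 0.0183). All 3 genes stood above both TCRb+CD8a+PD1-NK1.1- libraries in each TCRb+CD8a-NK1.1+ library. Tyrobp was called without any 1 library. On leaving out TCRb+CD8a+PD1-NK1.1- replicate 1 or 2 the adjusted p of Fcer1g was 0.115 or 0.0561 and that of Syk 0.121 or 0.0932.

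Of 30 genes of the T cell receptor complex and its signalling, 1 rose and 3 fell, against 1.06% and 0.362% of all tested genes. The median was −0.51. Lat, which encodes the scaffold that T cell receptor signals pass through, was at 120.0 and 153 CPM in TCRb+CD8a-NK1.1+ cells, against 445 and 482 CPM in TCRb+CD8a+PD1-NK1.1- cells (−1.76 ± 0.27, adjusted p = 0.0167). Cd5 and Cd6 encode related surface receptors that tune T cell receptor signals. Cd5 was at 14.5 and 30.2 CPM in TCRb+CD8a-NK1.1+ cells, against 132 and 131 CPM in TCRb+CD8a+PD1-NK1.1- cells (−2.56 ± 0.37, adjusted p = 0.0133). Cd6 was at 56.9 and 46.2 CPM in TCRb+CD8a-NK1.1+ cells, against 456 and 362 CPM in TCRb+CD8a+PD1-NK1.1- cells (−2.99 ± 0.33, adjusted p = 0.00404). The risen member was Txk, a kinase gene of the Tec family, at 369 and 378 CPM in TCRb+CD8a-NK1.1+ cells and 162 and 150.5 CPM in TCRb+CD8a+PD1-NK1.1- cells (1.25 ± 0.24, adjusted p = 0.0379). In both TCRb+CD8a-NK1.1+ libraries Lat, Cd5 and Cd6 were below both TCRb+CD8a+PD1-NK1.1- libraries. Receptor genes themselves were not called, with Trac, the alpha chain constant gene, at 535 and 492 CPM in TCRb+CD8a-NK1.1+ cells and 765 and 707 CPM in TCRb+CD8a+PD1-NK1.1- cells (−0.52 ± 0.31, adjusted p = 0.494), and with 0.17 ± 0.34, adjusted p = 0.902 for Cd3e. Cd6 was called without any 1 library. Lat and Txk were not called without TCRb+CD8a-NK1.1+ replicate 1 or either TCRb+CD8a+PD1-NK1.1- replicate, nor Cd5 without either TCRb+CD8a+PD1-NK1.1- replicate (adjusted p = 0.053 to 0.234).

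Tcrg-C4, a constant gene of the gamma chain, was higher in these TCRb+ cells, at 166 and 159.8 CPM in TCRb+CD8a-NK1.1+ cells and 39.2 and 47.3 CPM in TCRb+CD8a+PD1-NK1.1- cells (1.91 ± 0.28, adjusted p = 0.0136). It was the 1 called gene of 9 tested members of the gamma-delta T cell list, and its call was lost without TCRb+CD8a+PD1-NK1.1- replicate 1 or 2 (adjusted p = 0.15 and 0.0744). The gamma chain constant genes Tcrg-C1 (1.86 ± 0.41, adjusted p = 0.0596) and Tcrg-C2 (1.29 ± 0.29, adjusted p = 0.0666) were not called. Over all tested genes 1.42% were called.

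Among 25 cytotoxicity genes 2 rose and 1 fell, against 1.06% and 0.362% of all tested genes, and the median change was 0.43. Gzmc, a granzyme gene best known from strongly stimulated killer cells, was at 571 and 572 CPM in TCRb+CD8a-NK1.1+ libraries, against 5.63 and 14 CPM in TCRb+CD8a+PD1-NK1.1- libraries (5.86 ± 0.65, adjusted p = 0.00405). Gzmk, a granzyme gene with another cleavage preference that is common in memory CD8 T cells, was at 7.08 and 2.91 CPM in TCRb+CD8a-NK1.1+ libraries, against 137 and 204 CPM in TCRb+CD8a+PD1-NK1.1- libraries (−5.09 ± 0.51, adjusted p = 0.0034). The populations thus did not overlap in either gene and moved in opposite directions. Serpinb6b, which encodes a protease inhibitor, rose to 244 and 237 CPM in TCRb+CD8a-NK1.1+ cells, against 95 and 116 CPM in TCRb+CD8a+PD1-NK1.1- cells (1.19 ± 0.23, adjusted p = 0.0385).

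Gzmb, the gene of granzyme B, was at 8818 and 4922 CPM in TCRb+CD8a-NK1.1+ cells and 1615 and 2522 CPM in TCRb+CD8a+PD1-NK1.1- cells (1.73 ± 0.40, adjusted p = 0.0699). Gzma was at 1947 and 1606 CPM in TCRb+CD8a-NK1.1+ cells and 444 and 898 CPM in TCRb+CD8a+PD1-NK1.1- cells (1.40 ± 0.43, adjusted p = 0.168), and Prf1, the perforin gene, at 90.5 and 55.5 CPM in TCRb+CD8a-NK1.1+ cells and 170.0 and 114 CPM in TCRb+CD8a+PD1-NK1.1- cells (−0.96 ± 0.33, adjusted p = 0.23). None of these passed the test, although TCRb+CD8a-NK1.1+ libraries lay above for both granzyme genes and below for Prf1. Fasl, the gene of a death receptor ligand, overlapped, at 315 and 286 CPM in TCRb+CD8a-NK1.1+ cells and 254 and 345 CPM in TCRb+CD8a+PD1-NK1.1- cells. Gzmc to Gzmg are near-identical genes, and Gzmd, Gzme and Gzmg had 0 counts in all 4 libraries, so the level of Gzmc is uncertain in how reads were shared among the copies. Gzmc and Gzmk were called without any 1 library, and Serpinb6b was not without TCRb+CD8a-NK1.1+ replicate 1 or either TCRb+CD8a+PD1-NK1.1- replicate (adjusted p = 0.0831 to 0.311).

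Genes of naive and memory T cells were lower. Of 28 tested members 10 fell (35.7%, against 0.362% of all genes), none rose, and the median was −1.91. Ccr7, the chemokine receptor gene for entry into lymph nodes, was at 8.49 and 9.57 CPM in TCRb+CD8a-NK1.1+ libraries, against 538 and 220.0 CPM in TCRb+CD8a+PD1-NK1.1- libraries (−5.39 ± 0.63, adjusted p = 0.00506). Il7r, the survival cytokine receptor of naive and memory cells, was at 41.7 and 91.2 CPM in TCRb+CD8a-NK1.1+ cells, against 577 and 463 CPM in TCRb+CD8a+PD1-NK1.1- cells (−2.97 ± 0.49, adjusted p = 0.0206). Neither gene overlapped between the populations. Tcf7 and Lef1 encode partner transcription factors of naive and stem-like T cells. Tcf7 was at 114 and 114 CPM in TCRb+CD8a-NK1.1+ cells, against 726 and 461 CPM in TCRb+CD8a+PD1-NK1.1- cells (−2.38 ± 0.34, adjusted p = 0.0133). Lef1 was at 37.8 and 37.7 CPM in TCRb+CD8a-NK1.1+ cells, against 501 and 187 CPM in TCRb+CD8a+PD1-NK1.1- cells (−3.19 ± 0.50, adjusted p = 0.0171). Both were level between the TCRb+CD8a-NK1.1+ replicates and highest in TCRb+CD8a+PD1-NK1.1- replicate 1. Cd28, the main costimulator of T cells, was at 63.6 and 95.4 CPM in TCRb+CD8a-NK1.1+ cells, against 519 and 429 CPM in TCRb+CD8a+PD1-NK1.1- cells (−2.58 ± 0.31, adjusted p = 0.00541).

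Ccr9 encodes a chemokine receptor for homing to the gut and thymus. It had 0 counts in both TCRb+CD8a-NK1.1+ libraries and 104 and 14.3 CPM in TCRb+CD8a+PD1-NK1.1- libraries. Against the mean of these 2 unequal levels it was at least 579-fold lower in TCRb+CD8a-NK1.1+ cells, with the floor of 3 counts over the group (adjusted p = 0.029). Dapl1 was at 1 and 3.67 CPM in TCRb+CD8a-NK1.1+ cells, against 151 and 60.2 CPM in TCRb+CD8a+PD1-NK1.1- cells (−5.50 ± 0.74, adjusted p = 0.0105). The other fallen members were Btla, Dgka and Ly6c2. Of the 28 members 23 had both TCRb+CD8a-NK1.1+ libraries below both TCRb+CD8a+PD1-NK1.1- libraries, as had 18% of all tested genes. Ccr7 and Cd28 were called without any 1 library. Without TCRb+CD8a+PD1-NK1.1- replicate 1 the calls of Dapl1, Tcf7, Lef1, Il7r, Ly6c2, Btla and Ccr9 were lost (adjusted p = 0.0778 to 0.187), without TCRb+CD8a+PD1-NK1.1- replicate 2 those of Il7r, Btla and Ly6c2 (0.0656 to 0.229), and without TCRb+CD8a-NK1.1+ replicate 1 those of Btla and Ly6c2 (0.0568 and 0.124). The count of 10 became 8 without TCRb+CD8a-NK1.1+ replicate 1, 2 or 7 without TCRb+CD8a+PD1-NK1.1- replicate 1 or 2, and 2 with only the 4 libraries. Satb1 (−1.53 ± 0.45, adjusted p = 0.152) and Klf2 (−1.88 ± 0.66, adjusted p = 0.233), further genes of naive cells, were not called, and Bach2 was at 7.62 and 33.8 CPM in TCRb+CD8a-NK1.1+ cells and 36.7 and 17.5 CPM in TCRb+CD8a+PD1-NK1.1- cells.

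Of 19 genes of tissue exit and homing, 1 rose and 4 fell, against 1.06% and 0.362% of all tested genes. The median was −0.61. S1pr1, the sphingosine-1-phosphate receptor that leads lymphocytes out of tissue, was at 43.2 and 59.2 CPM in TCRb+CD8a-NK1.1+ cells, against 397 and 278 CPM in TCRb+CD8a+PD1-NK1.1- cells (−2.72 ± 0.47, adjusted p = 0.0264). S1pr3, a related receptor gene, was at 37 and 19.2 CPM in TCRb+CD8a-NK1.1+ cells, against 1.02 and 0.372 CPM in TCRb+CD8a+PD1-NK1.1- cells (5.33 ± 0.69, adjusted p = 0.0114). The receptors thus differed in opposite directions with no overlap of libraries. S1pr1 was not called without TCRb+CD8a-NK1.1+ replicate 1 (adjusted p = 0.0535) or TCRb+CD8a+PD1-NK1.1- replicate 1 or 2 (0.163 and 0.0656). S1pr3 was not called without TCRb+CD8a+PD1-NK1.1- replicate 1 or 2 (0.0505 and 0.0711). Of 17 chemokine receptor genes 3 fell, Ccr9, Ccr7 and Gpr183, and the median was −0.86. Gpr183, which encodes an oxysterol receptor that positions lymphocytes, was at 32.7 and 48.4 CPM in TCRb+CD8a-NK1.1+ cells, against 154 and 171 CPM in TCRb+CD8a+PD1-NK1.1- cells (−2.0 ± 0.29, adjusted p = 0.0132), a call lost without TCRb+CD8a+PD1-NK1.1- replicate 1 or 2 (0.0729 and 0.0743).

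Of 21 genes of tissue residency 1 rose (1.06% of all tested genes did), the chemokine gene Xcl1, whose product attracts dendritic cells. The median was 0.33. Xcl1 was also the 1 called gene of 9 chemokine genes (median 1.13). It was at 822 and 1110.0 CPM in TCRb+CD8a-NK1.1+ cells, against 135 and 306 CPM in TCRb+CD8a+PD1-NK1.1- cells (2.13 ± 0.43, adjusted p = 0.043), and was not called without TCRb+CD8a+PD1-NK1.1- replicate 1 (adjusted p = 0.235). Genes that mark resident T cells were present in both populations. Itgae, the gene of CD103, was at 939.6 and 547 CPM in TCRb+CD8a-NK1.1+ cells and 389 and 508 CPM in TCRb+CD8a+PD1-NK1.1- cells (0.73 ± 0.33, adjusted p = 0.368). Itga1, the gene of CD49a, was at 165 and 271 CPM in TCRb+CD8a-NK1.1+ cells and 51.6 and 101 CPM in TCRb+CD8a+PD1-NK1.1- cells (1.52 ± 0.45, adjusted p = 0.155). Cxcr6, a receptor gene for tissue retention, was at 1139 and 1321 CPM in TCRb+CD8a-NK1.1+ cells and 1368 and 2241 CPM in TCRb+CD8a+PD1-NK1.1- cells (−0.55 ± 0.27, adjusted p = 0.404). None of the 3 overlapped, with both integrins higher and Cxcr6 lower in TCRb+CD8a-NK1.1+ libraries, but no difference passed the test. Of all tested genes 36.6% did not overlap. Among 16 integrin genes (median 1.26) Itgax alone was called. Itgax, which encodes CD11c of dendritic and NK cells, rose to 126 and 205 CPM in TCRb+CD8a-NK1.1+ cells, against 12.4 and 26.8 CPM in TCRb+CD8a+PD1-NK1.1- cells (3.08 ± 0.45, adjusted p = 0.0133). Its adjusted p was 0.115 without TCRb+CD8a+PD1-NK1.1- replicate 1.

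Inhibitory receptor genes moved both ways, with 2 higher and 5 lower of 22 tested, against 1.06% and 0.362% of all tested genes. The median of the list was 0.62. Cd200r1, the receptor gene for CD200, was at 151 and 165 CPM in TCRb+CD8a-NK1.1+ cells, against 24.1 and 52.7 CPM in TCRb+CD8a+PD1-NK1.1- cells (2.04 ± 0.36, adjusted p = 0.0286), and Cd244a rose as given above. Ctla4, which encodes a competitor of CD28, was at 6.15 and 6.38 CPM in TCRb+CD8a-NK1.1+ cells, against 30.2 and 47.1 CPM in TCRb+CD8a+PD1-NK1.1- cells (−2.62 ± 0.38, adjusted p = 0.0133). Btla was at 4.28 and 9.43 CPM in TCRb+CD8a-NK1.1+ cells, against 67.5 and 61.3 CPM in TCRb+CD8a+PD1-NK1.1- cells (−3.23 ± 0.59, adjusted p = 0.0339). Pdcd1 was lower in TCRb+CD8a-NK1.1+ cells although the TCRb+CD8a+PD1-NK1.1- cells were sorted as PD1- (−2.52 ± 0.45, adjusted p = 0.0334). Cd5 and Lair1 were the other lower genes. No named member of this list was called in every fit that left out 1 library: without TCRb+CD8a+PD1-NK1.1- replicate 1 the calls of Cd5, Cd244a, Pdcd1, Cd200r1 and Btla were lost (adjusted p = 0.0912 to 0.179), without TCRb+CD8a+PD1-NK1.1- replicate 2 those of Cd5, Ctla4, Pdcd1 and Btla (0.0656 to 0.123), and without TCRb+CD8a-NK1.1+ replicate 1 those of Pdcd1 and Btla (0.0555 and 0.0568).

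Of 19 genes of costimulators and the TNF receptor family 1 rose and 2 fell, Cd28 and Icos. Over all tested genes 1.06% rose and 0.362% fell. The list's median was −0.88. Tnfrsf9, which encodes the activation receptor 4-1BB, rose to 389 and 319 CPM in TCRb+CD8a-NK1.1+ cells, against 58.6 and 96.9 CPM in TCRb+CD8a+PD1-NK1.1- cells (2.19 ± 0.35, adjusted p = 0.0187). Icos, a relative of Cd28, was at 23.3 and 37.2 CPM in TCRb+CD8a-NK1.1+ cells, against 129 and 225 CPM in TCRb+CD8a+PD1-NK1.1- cells (−2.55 ± 0.42, adjusted p = 0.0206). Both genes had no overlap between the populations. Tnfrsf9 was not called without TCRb+CD8a+PD1-NK1.1- replicate 1 (adjusted p = 0.163), nor Icos without TCRb+CD8a-NK1.1+ replicate 1 or TCRb+CD8a+PD1-NK1.1- replicate 2 (0.0508 and 0.122).

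Of 28 genes of innate-like and NKT cells 5 rose and 2 fell, against 1.06% and 0.362% of all tested genes. The median was 0.60. The risen members were Klrb1c, on whose product the sort selected, Fcer1g, Tyrobp and Syk, all given above, and Ikzf2. The count of 5 was 2 without TCRb+CD8a+PD1-NK1.1- replicate 1 or 2. The fallen members were Slamf1 (−4.45 ± 0.83, adjusted p = 0.0356) and Slamf6 (−4.01 ± 0.53, adjusted p = 0.00939), of which Slamf6 was called without any 1 library and Slamf1 was lost without TCRb+CD8a+PD1-NK1.1- replicate 1 or 2 (adjusted p = 0.15 and 0.122). Ikzf2 encodes the transcription factor Helios of regulatory and some unconventional T cells, and was at 276 and 457 CPM in TCRb+CD8a-NK1.1+ cells, against 41.8 and 46.2 CPM in TCRb+CD8a+PD1-NK1.1- cells (3.06 ± 0.44, adjusted p = 0.0133). Its call was lost without TCRb+CD8a+PD1-NK1.1- replicate 1 or 2 (adjusted p = 0.14 and 0.091). Of 10 genes of regulatory T cells Ikzf2 rose and Ctla4 fell. Foxp3, the defining gene of regulatory T cells, was at 8.82 and 2.5 CPM in TCRb+CD8a-NK1.1+ cells and 9.31 and 10.1 CPM in TCRb+CD8a+PD1-NK1.1- cells. The T-box gene Eomes was at 13.6 and 19.6 CPM in TCRb+CD8a-NK1.1+ cells and 44.5 and 49.7 CPM in TCRb+CD8a+PD1-NK1.1- cells (−1.51 ± 0.32, adjusted p = 0.0564) and its relative Tbx21 at 20.4 and 55.7 CPM in TCRb+CD8a-NK1.1+ cells and 19.1 and 38.1 CPM in TCRb+CD8a+PD1-NK1.1- cells (0.41 ± 0.52, adjusted p = 0.815). Eomes was lower in both TCRb+CD8a-NK1.1+ libraries and Tbx21 overlapped, and neither was called. Zfp683, Id2, Gata3 and Tox, further factors of innate-like and killer lymphocytes, were not called either (log2 changes of 0.86, 0.13, 0.68 and 0.14).

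Among 13 cytokine genes, 26 interferon response genes, 20 cell cycle genes and 18 genes of glycolysis none was called by edgeR's quasi-likelihood test. At an unadjusted p below 0.05 these lists held 4, 6, 3 and 2 genes, and DESeq2 called 1, 3, 0 and 1. Ifng, the type 1 effector cytokine, was at 59.6 and 69.1 CPM in TCRb+CD8a-NK1.1+ cells and 96.2 and 159 CPM in TCRb+CD8a+PD1-NK1.1- cells (−0.99 ± 0.33, adjusted p = 0.207), Tnf at 11.7 and 8.67 CPM in TCRb+CD8a-NK1.1+ cells and 11.5 and 14.3 CPM in TCRb+CD8a+PD1-NK1.1- cells, and Il4, a cytokine of NKT cells, at 1.07 and 0 CPM in TCRb+CD8a-NK1.1+ cells and 0.704 and 0 CPM in TCRb+CD8a+PD1-NK1.1- cells. Of the interferon genes 20 of 26 had both TCRb+CD8a-NK1.1+ libraries below both TCRb+CD8a+PD1-NK1.1- libraries, as had 18% of all tested genes, and the median was −0.57. The cell cycle median was 0.44 and that of glycolysis 0.01. The cytokine median was −0.07. Among 25 cytokine receptor genes (median −0.17) Il7r alone was called, against 1.42% of all tested genes. Il2rb, the chain shared by the receptors of interleukin 2 and interleukin 15, was at 1718 and 1014 CPM in TCRb+CD8a-NK1.1+ cells and 537 and 508 CPM in TCRb+CD8a+PD1-NK1.1- cells (1.39 ± 0.31, adjusted p = 0.0652). Of 21 immediate early genes, which also respond to tissue dissociation, Fos rose (1.61 ± 0.33, adjusted p = 0.0463). Fos follows the epithelial list, and its call was lost without TCRb+CD8a-NK1.1+ replicate 1 or either TCRb+CD8a+PD1-NK1.1- replicate (adjusted p = 0.119 to 0.311).

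**Figure D4:**
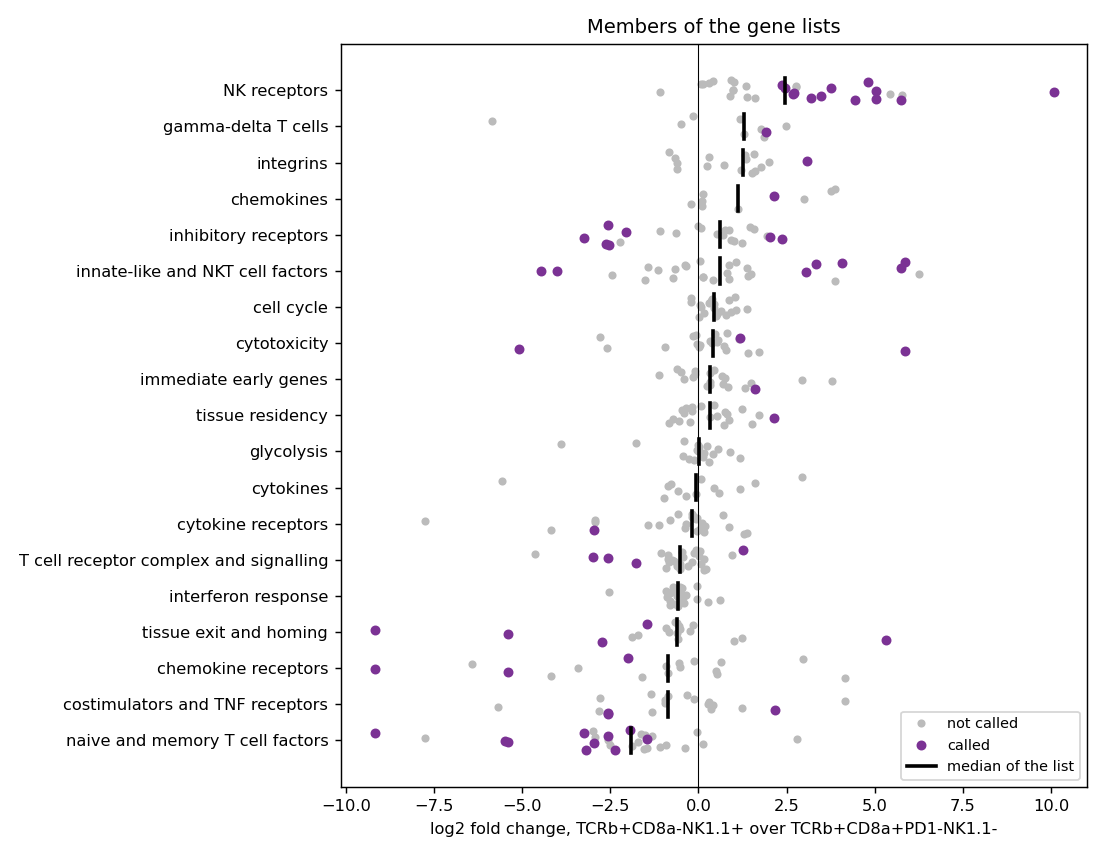
Log2 fold change (TCRb+CD8a-NK1.1+ over TCRb+CD8a+PD1-NK1.1- cells) of every tested member of 19 gene lists, with called members in purple and a bar at the list median. Of the 19 lists drawn, which leave out those of other cell types such as the epithelial list, the NK receptor list has the highest median (2.46) and the naive and memory list the lowest (−1.91). Genes at 0 counts in 1 population stand at their lower bound.

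Outside the lists, the largest falls above 20 CPM included Slc6a19, an amino acid transporter gene. It had 0 counts in both TCRb+CD8a-NK1.1+ libraries and 45.8 and 12 CPM in TCRb+CD8a+PD1-NK1.1- libraries. Against the mean of these unequal levels it was at least 283-fold lower in TCRb+CD8a-NK1.1+ cells. Cmah, which encodes an enzyme of sialic acid synthesis, was at 13 and 5.89 CPM in TCRb+CD8a-NK1.1+ cells, against 252 and 81.2 CPM in TCRb+CD8a+PD1-NK1.1- cells (−4.14 ± 0.77, adjusted p = 0.0356). Without TCRb+CD8a+PD1-NK1.1- replicate 1 the adjusted p of Slc6a19 was 0.244 and that of Cmah 0.235, and without TCRb+CD8a+PD1-NK1.1- replicate 2 that of Slc6a19 was 0.0565. Further genes were chosen after their values were seen. Cd7, a surface marker of T and NK cells, was at 3599 and 3276 CPM in TCRb+CD8a-NK1.1+ cells, against 703 and 1001 CPM in TCRb+CD8a+PD1-NK1.1- cells (2.01 ± 0.32, adjusted p = 0.0184). Tsc22d1, a transcription regulator gene, was at 51 and 56.6 CPM in TCRb+CD8a-NK1.1+ cells, against 1.96 and 1.71 CPM in TCRb+CD8a+PD1-NK1.1- cells (4.87 ± 0.32, adjusted p = 0.000529). Bcl11b, a factor that T cell identity depends on, was at 25.2 and 46.5 CPM in TCRb+CD8a-NK1.1+ cells, against 198 and 108 CPM in TCRb+CD8a+PD1-NK1.1- cells (−2.09 ± 0.42, adjusted p = 0.0414). The libraries of the populations did not overlap in any of these genes, nor in 36.6% of all tested genes. For Slc6a19 and Cmah lack of overlap was a condition of being chosen.

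The population nearest in sort markers to TCRb+CD8a-NK1.1+ cells was TCRb+CD8a+NK1.1+, which shares NK1.1 and differs by CD8a. In the same fit 53 of 15727 genes (0.337%) differed, 52 higher (0.331%) and 1 lower (0.00636%) in TCRb+CD8a-NK1.1+ cells. The 1 lower gene was Cd8a, at 89 and 43.6 CPM in TCRb+CD8a-NK1.1+ cells, against 2646 and 2637 CPM in TCRb+CD8a+NK1.1+ cells (−5.32 ± 0.47, adjusted p = 0.00264). Of the 52 higher genes 29 followed the epithelial list. Genes of exit and memory were among the rest. Ccr7 was at 8.49 and 9.57 CPM in TCRb+CD8a-NK1.1+ cells, against 0.25 and 0.585 CPM in TCRb+CD8a+NK1.1+ cells (4.40 ± 0.72, adjusted p = 0.0397). S1pr1 was at 43.2 and 59.2 CPM in TCRb+CD8a-NK1.1+ cells, against 7.25 and 2.84 CPM in TCRb+CD8a+NK1.1+ cells (3.34 ± 0.49, adjusted p = 0.026). Il7r was at 41.7 and 91.2 CPM in TCRb+CD8a-NK1.1+ cells, against 3.84 and 1.25 CPM in TCRb+CD8a+NK1.1+ cells (4.70 ± 0.55, adjusted p = 0.00985). Cd28 was at 63.6 and 95.4 CPM in TCRb+CD8a-NK1.1+ cells, against 17.9 and 19.6 CPM in TCRb+CD8a+NK1.1+ cells (2.08 ± 0.30, adjusted p = 0.0252). In each of these 4 genes the TCRb+CD8a-NK1.1+ libraries lay between those of TCRb+CD8a+NK1.1+ and those of TCRb+CD8a+PD1-NK1.1- cells. Libraries of TCRb+CD8a-NK1.1+ and TCRb+CD8a+NK1.1+ cells did not overlap in 31.3% of all tested genes.

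None of the NK receptor and granzyme genes named here was called between the NK1.1+ populations. Ncr1 was at 309 and 289 CPM in TCRb+CD8a-NK1.1+ cells and 17.2 and 61.5 CPM in TCRb+CD8a+NK1.1+ cells (2.93 ± 0.69, adjusted p = 0.14). Klra1 was at 697 and 794 CPM in TCRb+CD8a-NK1.1+ cells and 312 and 326 CPM in TCRb+CD8a+NK1.1+ cells (1.22 ± 0.33, adjusted p = 0.192). Gzmb was at 8818 and 4922 CPM in TCRb+CD8a-NK1.1+ cells and 16264 and 12522 CPM in TCRb+CD8a+NK1.1+ cells (−1.07 ± 0.39, adjusted p = 0.402). The TCRb+CD8a-NK1.1+ libraries lay above for both receptor genes and below for Gzmb. Without TCRb+CD8a+NK1.1+ replicate 1 or 2 only 5 or 2 genes were called, without TCRb+CD8a-NK1.1+ replicate 1 or 2 the counts were 138 and 667, and DESeq2 called 568. This comparison and the main one share the TCRb+CD8a-NK1.1+ libraries.

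**Figure D5:**
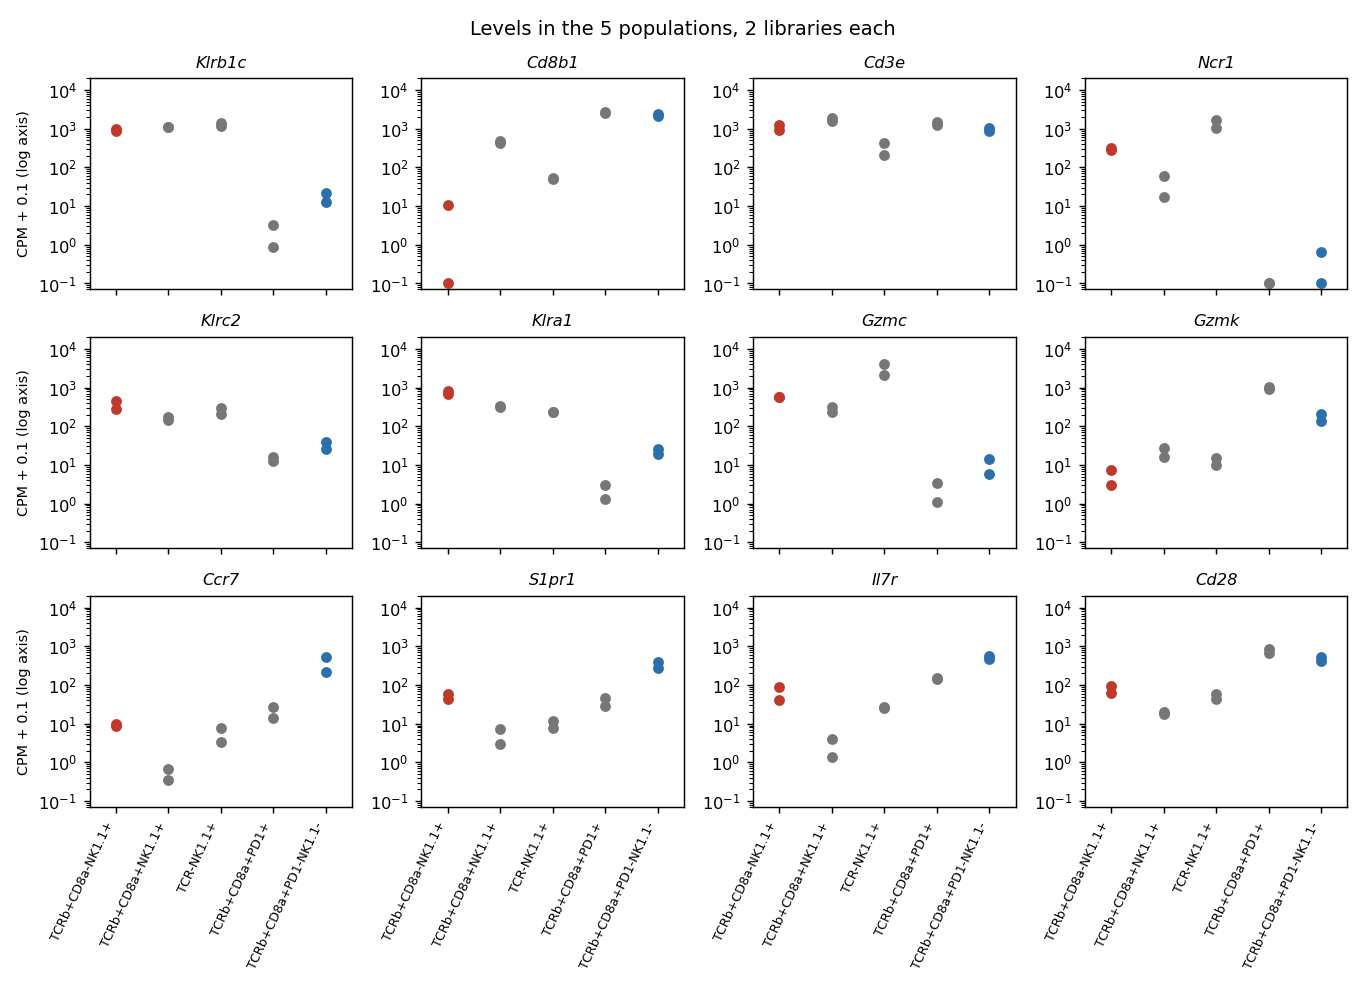
CPM + 0.1 on a log axis of 12 genes in the 2 libraries of each of 5 populations, with TCRb+CD8a-NK1.1+ cells in red, TCRb+CD8a+PD1-NK1.1- cells in blue and the 3 other populations in grey. Ccr7, S1pr1, Il7r and Cd28 points of TCRb+CD8a-NK1.1+ cells lie between those of TCRb+CD8a+NK1.1+ and TCRb+CD8a+PD1-NK1.1- cells, and Klrb1c, Klra1 and Klrc2 points lie high in the 3 NK1.1+ populations.

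Of the 12 libraries of the other 6 populations, none of which enters the comparisons above, 4 give a related contrast, TCRab+ILTC1 over TCRb+CD8a+NK1.1- cells. It is not the same contrast, since TCRab+ILTC1 cells kept Cd8a at 1668 and 2281 CPM, against 1499 and 1642 CPM in TCRb+CD8a+NK1.1- cells. Calls were made for 88 of 16828 genes (0.523%), with 41 higher (0.244%) and 47 lower (0.279%) in TCRab+ILTC1 cells. Of the genes called higher in TCRb+CD8a-NK1.1+ cells, 21 were also called higher there, which is 12.7% of the 166 and 51.2% of the 41. Ncr1 was at 174 and 101 CPM in TCRab+ILTC1 cells and at 0 counts in both TCRb+CD8a+NK1.1- libraries, so at least 1241-fold higher with the floor of 3 counts over the group (adjusted p = 0.0387). The others included Klra1 (4.94 ± 0.62, adjusted p = 0.017), Fcer1g (3.64 ± 0.45, adjusted p = 0.0155), Tyrobp (3.67 ± 0.39, adjusted p = 0.0129), Gzmc (4.64 ± 0.55, adjusted p = 0.0155), Xcl1 (2.72 ± 0.37, adjusted p = 0.0238), S1pr3 (7.69 ± 1.06, adjusted p = 0.0238), Tnfrsf9 (2.03 ± 0.21, adjusted p = 0.0129), Itgax (3.16 ± 0.41, adjusted p = 0.0204) and Txk (2.08 ± 0.31, adjusted p = 0.0341). None of the 21 followed the epithelial list, but this count had little room to differ. Epithelial genes such as Krt8 and Cldn4 were higher in TCRb+CD8a+NK1.1- cells, the opposite direction to the main comparison. Krt8 was at 3.72 and 0.926 CPM in TCRab+ILTC1 cells, against 162 and 352 CPM in TCRb+CD8a+NK1.1- cells. Shared lower genes were Gzmk (−4.69 ± 0.57, adjusted p = 0.0155), Cd28 (−3.94 ± 0.68, adjusted p = 0.0427), Pdcd1 (−3.05 ± 0.52, adjusted p = 0.0427), Gpr183 (−2.67 ± 0.36, adjusted p = 0.0228) and Ms4a6b, 8.93% of the 56 lower genes tested in both sets and 10.6% of the 47.

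Other genes did not pass the threshold in both contrasts, and the difference between the contrasts was not tested. Il7r differed by −3.18 ± 0.64, adjusted p = 0.0659, Ccr7 by −5.04 ± 2.12, adjusted p = 0.336, Tcf7 by −0.87 ± 0.32, adjusted p = 0.272 and Lef1 by −0.99 ± 0.45, adjusted p = 0.371 in TCRab+ILTC1 over TCRb+CD8a+NK1.1- cells, and Gzmb, not called above, by 3.17 ± 0.42, adjusted p = 0.0228. Of the genes called higher in TCRb+CD8a-NK1.1+ cells 10 were called lower in TCRab+ILTC1 cells, among them Krt8 (−6.75 ± 1.16, adjusted p = 0.0427) and Fos (−2.57 ± 0.41, adjusted p = 0.0369), and 7 of the 10 follow the epithelial list. Leaving out 1 library changed this count of 88 to 840 without TCRab+ILTC1 replicate 1, 11 without TCRab+ILTC1 replicate 2, and 36 or 11 without TCRb+CD8a+NK1.1- replicate 1 or 2. Over those 4 libraries alone no gene was called by edgeR's quasi-likelihood test, with 1761 at an unadjusted p below 0.05, whereas DESeq2 on the 12 libraries called 1180.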

How the data were processed

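RNA of sorted tumour lymphocytes was copied and amplified with a SMARTer kit, per the labels' protocols. The authors deposited whole counts per gene for 22 libraries, made with BWA 0.7.5a, Picard and HTSeq, per the submitters' processing notes, which name the builds mm9 and NCBIM37. Counting settings, including strand, are not stated by them. Groups come from the titles, and the spellings ILC1I and ILC1l were read as 1 population. Of 37620 entries, 32897 (99.02% of counts) were given symbols from a GRCm38 annotation, used for names, and 3 symbols were shared by several entries.

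Counts were tested in R 4.3.3 with edgeR 4.0.16, which used limma 3.58.1 (TMM scaling, filterByExpr, 1 mean per population, quasi-likelihood F test, calls at p below 0.05 after Benjamini-Hochberg adjustment). Populations named by TCR, CD8a, NK1.1 and PD1 (10 libraries) and the other 6 (12 libraries) were fitted separately. The procedure was run on simulated counts drawn with the fit's own spread, with its outcome not given here. No simulated library held added epithelial RNA, so the run does not bear on that feature. DESeq2 1.42.0 was an alternative. Tables and figures used Python 3.11.15, pandas 2.3.3 and matplotlib 3.10.9. A gene at 0 in a population has as its fold a lower bound, the other population's mean CPM set against 3 counts over that population. List medians use these bounds. Bounds and the CPM of 3 counts describe counting error alone, because no molecular identifiers mark PCR copies.

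The populations compared, the 27 gene lists and the tests were chosen with earlier results of these data known. Ighd, Lilrb4a and Trdc of the lists had no entry, and members with low counts in the libraries of a fit were filtered. Named genes are 39 key genes, the 15 largest rises and 15 largest falls among called genes without overlap whose higher population had a mean of at least 20 CPM, up to 4 called genes each way per list, and the 8 of largest difference each way against TCRb+CD8a+NK1.1+ cells. These size ranks skip predicted genes, olfactory receptors and antigen receptor segments, and some genes picked are not printed. Alternatives were RLE scaling, no filter, DESeq2, fits of 4 or 22 libraries, a replicate block, leaving out each library, and leaving out genes that follow the epithelial list. The fit without genes following the epithelial or myeloid list was added after seeing the data.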

Additional observations from a re-analysis of the deposited data

How the results depend on the processing

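The counts of called genes depended on the fit. For TCRb+CD8a-NK1.1+ over TCRb+CD8a+PD1-NK1.1- cells the 223 calls became 1249 with no filter on low counts, 1024 with DESeq2, 32 with only the 4 libraries and 131 with all 22, and for these the cause was not tested. Leaving out 1 library gave 40 to 884. RLE scaling gave 229, and leaving out genes that follow the epithelial list, or that or the myeloid list, gave 183 each. For TCRb+CD8a-NK1.1+ over TCRb+CD8a+NK1.1+ cells the 53 calls became 906, 568 and 3 with no filter, DESeq2 and the 4 libraries, and 2 to 667 without 1 library. For TCRab+ILTC1 over TCRb+CD8a+NK1.1- cells the 88 calls became 1244, 1180 and 0 in the same order, and 11 to 840 without 1 library, while 46.6% of calls were higher in the fit reported, 39.8% with RLE scaling and 23.2% with DESeq2. Nothing in the labels says what a replicate number marks. Deviations of same-numbered libraries correlated at 0.0689 between the 2 main populations and at 0.0545 to 0.227 over the 10 pairs of populations of the fit, above 0.1 in 8 of them, so pairing was not established. A replicate block gave 406, 72 and 99 calls in the 3 comparisons.

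All 73 named genes called in the main comparison were also called with RLE scaling, with no filter and with DESeq2. With the block 72 were called, with all 22 libraries 39, with only 4 libraries 16, and without the followers of the epithelial list all 52 that were tested. Without TCRb+CD8a-NK1.1+ replicate 1 or 2, 12 or 0 of the 73 lost the call, and without TCRb+CD8a+PD1-NK1.1- replicate 1 or 2, 56 or 47 did. Where 1 library of a population is left, it is assumed to vary like the other populations. Of the 73, 15 were called without any 1 library. Klrb1c and Cd8a, on whose products the sort selected, are among these. Signs turned only in genes that were not called. Over the fits that leave out 1 library, log2 fold changes ran from −0.20 to 0.25 for Fasl, from −5.26 to 5.88 for Il4, from −1.84 to 0.32 for Bach2, from −0.093 to 0.38 for Cd3e, from −0.50 to 1.01 for Tbx21, from −0.10 to 0.41 for Id2 and from −0.039 to 0.36 for Tox. Fasl was at −0.0097 with the block and −0.029 with all 22 libraries. With 12893849 to 13817168 counts a library, levels under 0.217 to 0.233 CPM rest on fewer than 3 counts.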
